A study of Mus musculus with 2 samples.

Results

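A set of 10 genes of oxidative stress defence and detoxification was followed across the cell types of the mouse heart. They are Mgst1, Gstm1, Ephx1, Ephx2, Gpx3, Cat, Sod2, Nqo1, Hmox1 and Nfe2l2, of 32589 genes in the count tables. They were picked by symbol after an earlier look at these libraries, in which Mgst1 and Ephx2 stood high in endothelial cells (ECs) of the PD-1 inhibitor group. The ratios between the groups are therefore a description and were not tested. Nuclei of the heart came from male C57BL/6 mice that were 8 weeks old at the start. The PD-1 inhibitor group received an antibody to mouse PD-1 at 5 mg/kg on day 1 and day 14 of a cycle of 28 days, and the Control group received PBS. Each group was sequenced as 1 GEXSCOPE single-nucleus library, in which every captured transcript molecule is counted once by its unique molecular identifier (UMI). The number of hearts in a library is not given in the sources used here. With 1 library per group there are no replicates, and all intervals are 95% intervals that cover counting error only.

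Cells take apart reactive oxygen and reactive foreign or lipid compounds in steps. Superoxide dismutases turn superoxide into hydrogen peroxide, and catalase and the glutathione peroxidases remove the peroxide. Epoxide hydrolases open reactive epoxides, glutathione S-transferases couple electrophiles to glutathione, and the transcription factor NRF2, the product of Nfe2l2, switches on many of these genes through the antioxidant response element.

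The Control library held 13177525 UMIs in 10197 barcodes and the PD-1 inhibitor library 10875248 UMIs in 7967, with a median of 1020 and 1066 UMIs per nucleus. After nuclei with over 20% mitochondrial UMIs and called doublets were left out, 9482 and 7619 nuclei remained, and the 10 genes made up 14412 and 15561 of their UMIs. The libraries shared 47 barcode sequences. Clusters were named from marker genes, and 10 cell types were found, among them 2802 and 2508 ECs, 2467 and 1969 fibroblasts, 1271 and 1080 cardiomyocytes (CMs), 1250 and 881 macrophages (MPs) and 474 and 458 mesothelial cells. In ECs the sum of 12 endothelial markers was 11544 and 11777 UMIs per 1000000 UMIs (CPM) and none of them was at 0. Values are given for the Control library first and the PD-1 inhibitor library second, and a log2 ratio is PD-1 inhibitor over Control. A gene was compared in a cell type when it had at least 50 UMIs over both libraries and was called higher or lower past a ratio of 1.5-fold.

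In ECs, 3 of the 10 genes were past 1.5-fold higher in the PD-1 inhibitor library, namely Ephx2, Mgst1 and Gstm1, and 0 were lower. Of all 10697 genes with at least 50 UMIs in ECs, 6.06% were past 1.5-fold higher and 4.48% lower, and nothing is read from the members' share because these genes were picked for this contrast. In all, 9 of the 10 had enough UMIs in ECs, and their median log2 ratio was 0.39 beside 0.01 for all genes. Hmox1 had only 12 and 18 UMIs in ECs and was not compared. The members nearest the threshold on either side were Gstm1, at 1.57-fold, and Sod2, at 1.34-fold.

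**Figure D1:**
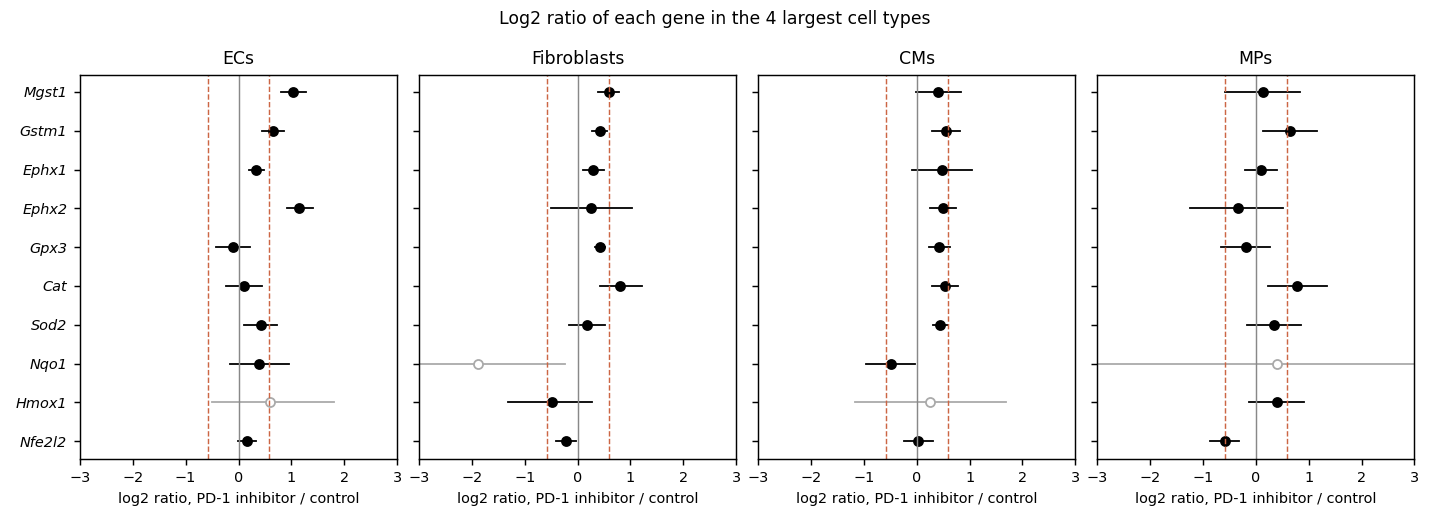
Log2 ratio of each gene (rows), PD-1 inhibitor over Control, in ECs, fibroblasts, CMs and MPs, with 1 library per group. Points are ratios of summed UMIs and lines are 95% counting intervals, ended at the panel edge; open grey points had under 50 UMIs, and dashed lines mark 1.5-fold. Mgst1 at 1.03 and Ephx2 at 1.15 stand to the right of the dashed line in ECs with their whole intervals, whereas in CMs no filled point passes it.

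Mgst1 encodes a membrane-bound glutathione transferase that also reduces lipid peroxides. Its gene lies on chromosome 6 (GRCm38 chr6:138140316-138156755, plus strand). In ECs it had 225 and 449 UMIs, or 75.7 CPM (66.1 to 86.2) and 155 CPM (141 to 170), and the intervals did not overlap. The log2 ratio was 1.03 (0.80 to 1.27). EC nuclei with a Mgst1 UMI were 6.25% and 11.5% of all ECs, and 3.6% and 6.7% after each nucleus was thinned to 500 UMIs. T cells, which should lack the gene, had a Mgst1 UMI in 2.95% and 3.17% of nuclei at a median of 851 and 884 UMIs, against 902 and 952 UMIs in ECs. After thinning the T cell shares were 1.27% and 1.06%. Before thinning, the intervals of the EC and the T cell share overlapped in the Control library (5.38% to 7.21% and 1.2% to 5.99%) and did not under PD-1 inhibitor (10.3% to 12.8% and 1.17% to 6.78%).

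Across the cell types Mgst1 was highest in mesothelial cells, the lining of the epicardium, at 435 and 425 CPM. Its log2 ratio there was -0.03 (-0.24 to 0.18). Adipocytes, with 154 and only 16 nuclei, held 263 CPM (213 to 322) and 250 CPM (137 to 419). Fibroblasts held 132 and 199 CPM and lay just past the threshold with a log2 ratio of 0.59 (0.39 to 0.78). It was 0.51 in the largest fibroblast cluster, led by Rgs17, short of 1.5-fold, and 0.72 in the one led by Cilp, and these made up 68.5% and 58.9%, and 27.4% and 37%, of fibroblasts. CMs held 38.5 and 51.2 CPM, and MPs 30.2 and 32.9 CPM, which is no more than the 29.7 and 31.4 CPM of T cells within counting error. Over all nuclei Mgst1 stood at 101 and 151 CPM.

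Gstm1 encodes a soluble mu-class glutathione transferase (GRCm38 chr3:108012255-108017973, minus strand). It has close relatives in a gene cluster, and how reads shared between them were counted is not given in the sources used here, so its values are uncertain in that respect. It stood at 109 and 172 CPM in ECs, from 325 and 497 UMIs, and its log2 ratio was 0.65 (0.45 to 0.86). ECs with a Gstm1 UMI were 8.78% and 13.3%, against 4.64% and 4.23% of T cells. After thinning the shares were 4.68% and 7.46% of ECs and 2.11% and 2.65% of T cells. In fibroblasts Gstm1 stood at 264 and 353 CPM, a log2 ratio of 0.42 (0.28 to 0.56), and in mesothelial cells at 349 and 356 CPM, a log2 ratio of 0.03 (-0.20 to 0.26). Fibroblasts lay below mesothelial cells in the Control library, whereas the intervals of the 2 types overlapped under PD-1 inhibitor. In MPs the level was 46.8 and 72.9 CPM, a log2 ratio of 0.64 (0.13 to 1.15) from 62 and 73 UMIs. T cells held 59.4 and 57.5 CPM, so MPs were no higher than T cells within counting error in either library.

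The promoters of Mgst1, Gstm1 and Nfe2l2 are of interest because the antioxidant response element links such genes to NRF2. RefSeq promoters on GRCm38.p6, from 250 bases before to 50 bases after the start, were matched for 8 of the 10 members, and Ephx2 and Hmox1 were not among them. These were 10 promoters, since Mgst1 and Gstm1 have 2 starts each. The element was searched as TGACNNNGC on both strands, and 12.4% of the 32851 promoters of the same length held it. Of the matched members, only Mgst1, at 1 of its 2 starts, and Nfe2l2 held it in these windows. The AP-1 site TGANTCA, which can overlap it and is in 7.81% of the promoters, was in no member's window. The matches are printed in capitals within 30 bases, at chr6:138140461-138140490 on the plus strand for Mgst1, where the element reads on the opposite strand, and at chr2:75704884-75704913 on the minus strand for Nfe2l2. The 250 bases before 1 of the 2 starts of Gstm1 (chr3:108017974-108018223, minus strand) follow because Gstm1 was higher together with Mgst1 in ECs while neither of its windows held such letters. A match is no evidence of binding.
Mgst1: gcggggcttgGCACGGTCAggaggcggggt
Nfe2l2: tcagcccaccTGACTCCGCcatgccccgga
Gstm1: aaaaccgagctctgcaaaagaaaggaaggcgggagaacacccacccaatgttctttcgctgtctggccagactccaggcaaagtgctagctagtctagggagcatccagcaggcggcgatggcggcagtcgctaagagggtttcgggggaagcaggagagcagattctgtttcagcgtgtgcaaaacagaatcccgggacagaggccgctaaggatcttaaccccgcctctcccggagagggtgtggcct

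Ephx2 encodes the soluble epoxide hydrolase, which turns epoxides of arachidonic acid, lipid mediators that widen vessels, into diols (GRCm38 chr14:66084374-66124500, minus strand). In ECs it had 203 and 438 UMIs, or 68.3 CPM (59.2 to 78.3) and 151 CPM (138 to 166), and its log2 ratio of 1.15 (0.91 to 1.40) was the highest of the 10 genes there. EC nuclei with an Ephx2 UMI were 5.21% and 10.6%, or 3.03% and 6.02% after thinning. In Control T cells the share was 0.844% before thinning and 0.422% after it. PD-1 inhibitor T cells had an Ephx2 UMI in 0 of 189 nuclei (exact upper limit 1.93%), and 3 UMIs there would make 15.7 CPM. CMs were the only other cell type with a comparable level among the 8 types with at least 50 nuclei per library, at 105 and 148 CPM. CMs lay above ECs in the Control library, and the intervals of the 2 types overlapped under PD-1 inhibitor. Fibroblasts held 10.4 and 12.5 CPM.

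Ephx1 encodes the microsomal epoxide hydrolase, which acts mainly on foreign compounds (GRCm38 chr1:180976210-181020904, minus strand). It was already high in Control ECs and stood at 270 and 342 CPM, from 804 and 990 UMIs. The log2 ratio was 0.34 (0.20 to 0.48), short of 1.5-fold. ECs held 43.9% and 48.2% of all Ephx1 UMIs while being 29.6% and 32.9% of nuclei. Mesothelial cells were level with ECs within counting error in both libraries, at 296 and 319 CPM. CMs were lowest, at 20.7 and 28.8 CPM, below the 59.4 CPM of T cells in the Control library. The order of cell types thus differed for the pair of hydrolases, with CMs last for Ephx1 and first or level with the first for Ephx2.

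**Figure D2:**
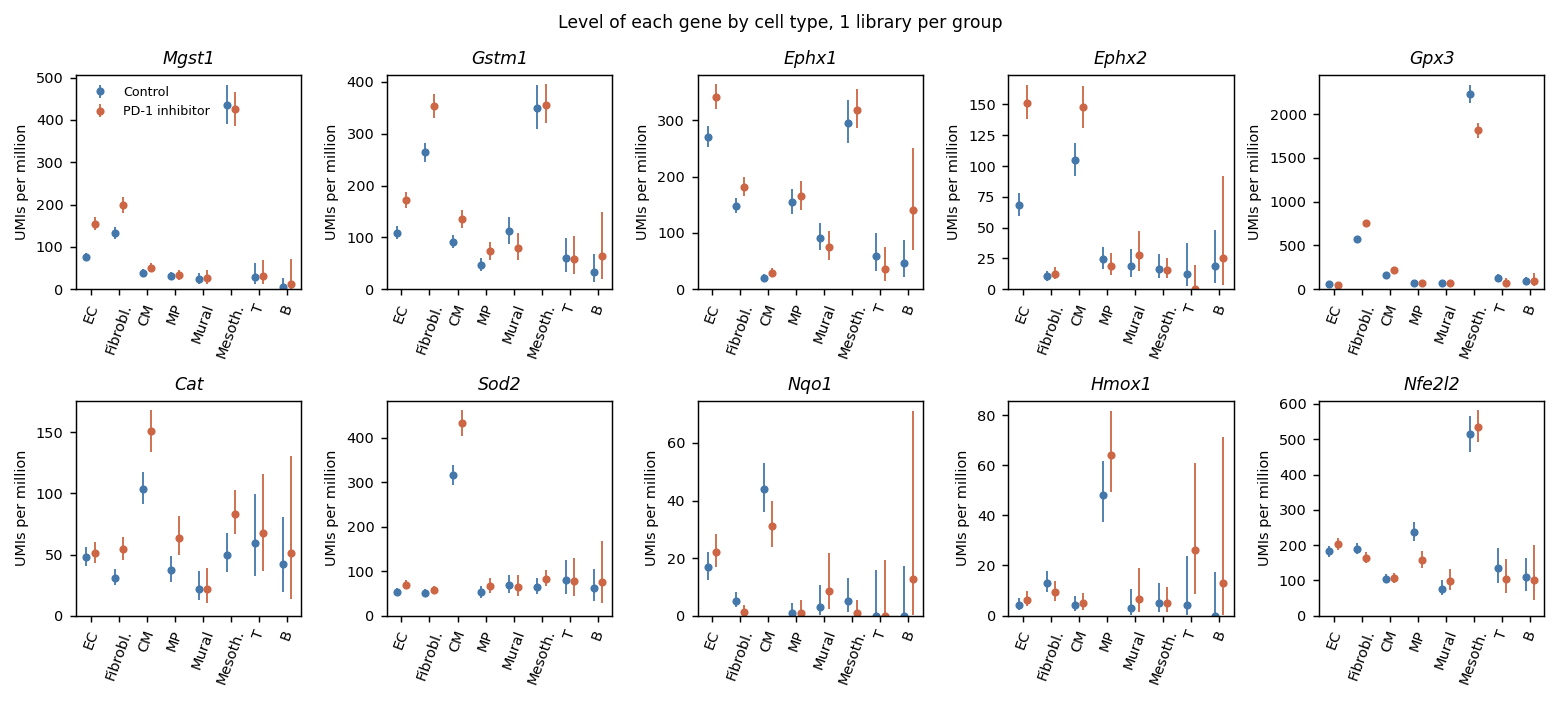
Level of each of the 10 genes in CPM (vertical axis, from 0, its own scale per gene) in 8 cell types, for the Control and the PD-1 inhibitor library. Points are summed UMIs over the cell type's total and bars are exact 95% Poisson intervals. Mgst1, Gpx3 and Nfe2l2 peak in mesothelial cells, Sod2 in CMs and Hmox1 in MPs, and Ephx2 is high in ECs and CMs.

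The ECs were divided further by clustering them alone. Endocardial nuclei were 39.8% and 51.4% of ECs and capillary nuclei 35.4% and 27.7%. Clusters with lymphatic, arterial and valve markers made up most of the rest, and 274 and 217 nuclei, led by Lsamp, Sfrp1, Bmp4 and Enpp2, stayed unnamed. Fos and Ccn1, which respond within a short time to stimuli, were also among the leading genes of the unnamed cluster. At a Leiden resolution of 1 for ECs in place of 0.5, an unnamed cluster led by Fos, Fosb, Ccn1 and Egr1 held 169 Control and 7 PD-1 inhibitor nuclei, so the nuclei behind the unnamed cluster may differ between the libraries, and their part in its ratios was not tested. Ephx2 was concentrated in the endocardial and the unnamed nuclei, and Mgst1 was highest in endocardial nuclei. Capillary ECs held only 15 and 14 Ephx2 UMIs, or 15.9 and 21.2 CPM, and arterial ECs 0 and 1.

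Within endocardial ECs, Mgst1 stood at 131 and 229 CPM, a log2 ratio of 0.81, and Ephx2 at 119 and 205 CPM, a log2 ratio of 0.79. Gstm1 stood at 129 and 203 CPM, a log2 ratio of 0.65. These were 3 of the 8 members compared in endocardial ECs, where 7.81% of all genes were past 1.5-fold higher and 5.24% lower. Ephx1 was at 368 and 447 CPM there, a log2 ratio of 0.28. When the 10 genes were left out of the clustering, the endocardial ratios were 0.85 for Mgst1, 0.81 for Ephx2 and 0.68 for Gstm1. Under all processing alternatives they ranged from 0.73 to 0.97, from 0.58 to 0.96 and from 0.55 to 0.73. The lowest for Gstm1 was short of 1.5-fold, and the lowest for Ephx2 lay at the threshold. The nuclei named endocardial differed between these alternatives. At an EC resolution of 1 they were 431 and 626, and another 587 and 636 had too few endocardial markers for the name. At 0.25 they were 1405 and 1519, against 1114 and 1289 at 0.5. In the unnamed EC cluster Ephx2 went from 131 CPM (96.1 to 175) to 353 CPM (295 to 419), and its log2 ratio was 1.42 (0.93 to 1.94), and Mgst1 from 71.3 to 166 CPM, a log2 ratio of 1.20. These were 2 of 5 members compared in that cluster, where 9.83% of all genes were past 1.5-fold higher and 9.11% lower. In the smaller clusters single members passed 1.5-fold on few UMIs. Ephx1 did so in arterial ECs, with 25 and 41 UMIs, beside 11.8% of all genes higher and 13.6% lower, and Nfe2l2 in valve-like ECs, with 20 and 39 UMIs, beside 9.77% and 9.85%.

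In capillary ECs the genes past the threshold were partly others. Gstm1 was at 93.1 and 165 CPM, a log2 ratio of 0.83, and Sod2 at 47.6 and 87.9 CPM, a log2 ratio of 0.88. Mgst1 was low, at 26.5 and 51.5 CPM, a log2 ratio of 0.95 from 25 and 34 UMIs, and overlapped with the 29.7 and 31.4 CPM of T cells. Under the processing alternatives this ratio ranged from 0.45 to 1.73, and the lowest was short of 1.5-fold. These were 3 of 7 members compared, beside 9.29% of all genes higher and 7.3% lower. T cells held 80.6 CPM (48.6 to 126) and 78.4 CPM (43.9 to 129) of Sod2, so capillary ECs were no higher than T cells within counting error in either library. T cells were not taken as a type lacking Sod2, so their level marks no background for it. The sum of 11 CM markers in capillary ECs was 5743 and 6849 CPM, with 8 of 11 higher and none at 0, and its part in the Sod2 ratio was not tested.

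With both libraries given the same mix of EC subtypes, the log2 ratio was 0.86 for Mgst1, 0.93 for Ephx2, 0.60 for Gstm1 and 0.23 for Ephx1. These ratios were smaller than in ECs as found, and the first 3 remained past 1.5-fold. The unnamed cluster counted as 1 subtype here, so differences in the nuclei within a cluster were not evened out. The sum of 12 fibroblast markers in ECs was 2928 and 3962 CPM, with 8 of 12 higher and none at 0, and in endocardial ECs it was 3659 and 4632 CPM with 4 of 12 higher. Fibroblasts hold Mgst1 and Gstm1 as well, and Ephx2 at 10.4 and 12.5 CPM. The part of fibroblast RNA in the EC ratios of Mgst1, Gstm1 and Ephx2 was not tested.

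**Figure D3:**
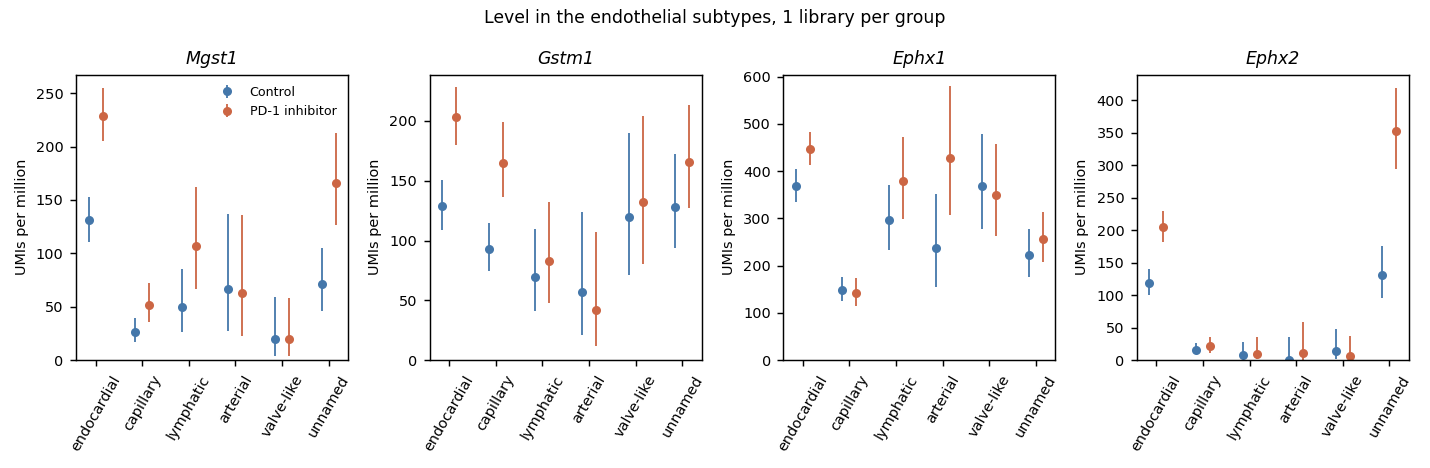
Level of Mgst1, Gstm1, Ephx1 and Ephx2 in CPM (vertical axis, from 0) in the 6 endothelial clusters, for the Control and the PD-1 inhibitor library. Points are summed UMIs over the cluster's total and bars are exact 95% Poisson intervals. Ephx2 lies above 100 CPM only in the endocardial and the unnamed cluster, and the PD-1 inhibitor point is above the Control interval in both.

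Gpx3 encodes the secreted glutathione peroxidase (GRCm38 chr11:54902453-54910377, plus strand). Mesothelial cells had by far the highest level, 2231 CPM (2128 to 2338) and 1814 CPM (1733 to 1898), and the log2 ratio there was -0.30 (-0.39 to -0.20). In fibroblasts the direction was opposite, 570 and 760 CPM with a log2 ratio of 0.42 (0.32 to 0.51). Neither passed 1.5-fold. ECs held 57.8 and 53.6 CPM, no higher than the 123 and 73.2 CPM of T cells, so that the EC level is read as background.

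Within the CMs, Gpx3 was set apart by a small cluster of 41 and 47 nuclei led by Mybphl, Myl4 and Sln, genes typical of atrial muscle. It held 1641 and 1921 CPM of Gpx3, from 99 and 163 UMIs, whereas the largest CM cluster, of 746 and 534 nuclei, held 83.8 and 62.2 CPM. The log2 ratio in this small cluster was 0.22 (-0.14 to 0.60).

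Cat encodes catalase, the peroxisomal enzyme that breaks down hydrogen peroxide (GRCm38 chr2:103453849-103485160, minus strand). It was higher past 1.5-fold in fibroblasts, at 30.9 and 54.4 CPM with a log2 ratio of 0.81 (0.42 to 1.21), in MPs, at 37.0 and 63.9 CPM with 0.78 (0.23 to 1.35), and in mesothelial cells, at 49.7 and 83.2 CPM with 0.73 (0.18 to 1.33). The MP ratio rested in part on a small cluster led by Cd209a and Flt3, with 5 and 17 UMIs, and in the large MP cluster led by Ms4a14 the log2 ratio was 0.49 (-0.13 to 1.12). The levels in fibroblasts and MPs were no higher than the 59.4 and 67.9 CPM of T cells, and those in mesothelial cells overlapped with them. T cells were taken as a type lacking Mgst1, Gstm1, Ephx1, Ephx2 and Gpx3 but not Cat, so their Cat level marks no background. In ECs Cat was at 47.8 and 51.1 CPM, a log2 ratio of 0.10 (-0.24 to 0.44). Adipocytes, which numbered 154 and only 16 nuclei, went the other way, from 521 CPM to 250 CPM with 188 and 14 UMIs. In adipocytes 1 of 6 members compared, Sod2, was past 1.5-fold higher and 2, Cat and Nfe2l2, were lower, beside 15.7% and 23.8% of all genes.

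Sod2 encodes the manganese superoxide dismutase of the mitochondrion (GRCm38 chr17:13006846-13040063, plus strand). It was highest in CMs, at 315 CPM (293 to 338) and 432 CPM (403 to 461), and no other of the 8 types passed 82.3 CPM. The log2 ratio in CMs was 0.45 (0.31 to 0.60). The CMs fell into 2 large clusters that differed in Sod2 and in mitochondrial UMIs. The cluster led by Xirp2, Acta1 and Ckm had 11% and 9.96% mitochondrial UMIs and 719 and 804 CPM of Sod2, and the larger cluster, of 746 and 534 nuclei, had 0.556% and 0.837% mitochondrial UMIs and 138 and 143 CPM. The cluster led by Xirp2 made up 38.1% and 46.2% of CMs. Within these 2 large clusters the log2 ratio of Sod2 was 0.16 (-0.00 to 0.33) and 0.05 (-0.26 to 0.35), smaller than over all CMs. The small CM cluster led by Mybphl differed, with 4 and 31 Sod2 UMIs and a log2 ratio of 2.32 (0.96 to 4.43). Its mitochondrial UMIs were 2.87% and 6.42%.

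In CMs as a whole, 0 of 9 members compared passed 1.5-fold in either direction, beside 8.32% of all genes higher and 8.1% lower. In CMs 8 of the 9 had a positive log2 ratio, with a median of 0.45 beside -0.01 for all genes. Markers of some other cell types were also higher in these CMs, and those of others were lower. The sums were lower for adipocyte markers, at 39.4 and 29.3 CPM, and T cell markers, at 28.6 and 20.4 CPM. B cell markers, at 39.4 and 25.8 CPM, and glial markers, at 38.5 and 34.3 CPM, were lower too. The summed level of 12 EC markers was 597 and 834 CPM with 11 of 12 higher, that of 12 fibroblast markers 2203 and 2768 CPM with 10 of 12 higher, and that of 9 mesothelial markers 92.8 and 148 CPM with 6 of 9 higher, and none of them was at 0. Their part in these ratios was not tested. Ephx2 had 0.49 (0.25 to 0.74), Cat 0.53 (0.29 to 0.78) and Gstm1 0.56 (0.29 to 0.82). In the larger cluster, with few mitochondrial UMIs, Ephx2 kept a log2 ratio of 0.57 (0.17 to 0.96) and Cat one of 0.60 (0.23 to 0.98), while Gpx3 was at -0.42 (-0.87 to 0.00). In the cluster led by Xirp2 the ratios were smaller, 0.22 (-0.10 to 0.56) for Ephx2 and 0.21 (-0.12 to 0.55) for Cat. For Gstm1 they were 0.30 (-0.20 to 0.79) in the larger cluster and 0.33 (0.01 to 0.65) in the one led by Xirp2, below its ratio over all CMs. With at most 5% mitochondrial UMIs per nucleus, the log2 ratio in CMs was -0.12 for Gpx3, 0.30 for Sod2 and 0.26 for Gstm1.

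**Figure D4:**
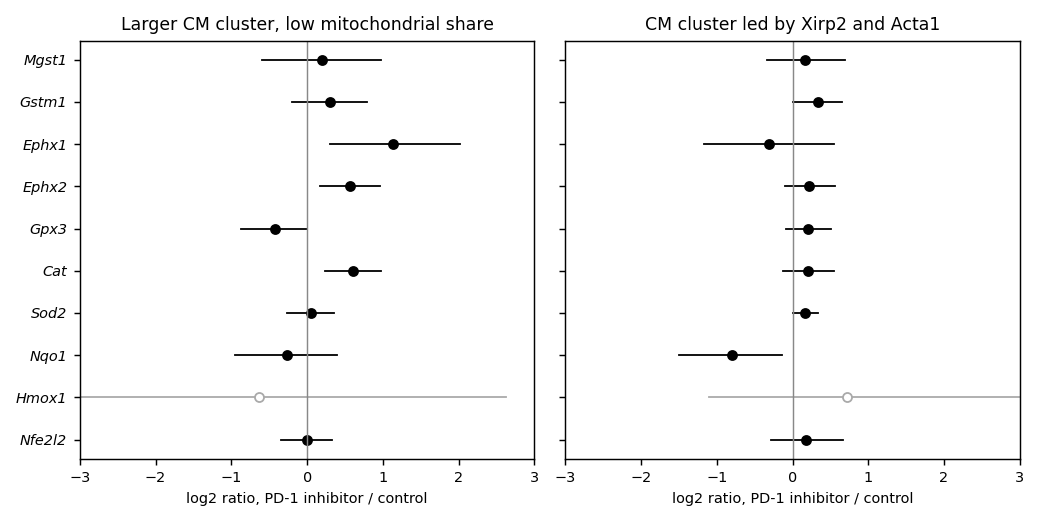
Log2 ratio of each gene (rows), PD-1 inhibitor over Control, in the 2 large CM clusters (left, the larger one with few mitochondrial UMIs; right, the one led by Xirp2 and Acta1), with 1 library per group. Points are ratios of summed UMIs and lines are 95% counting intervals, ended at the panel edge; open grey points had under 50 UMIs. Sod2 lies near 0 in both panels, at 0.05 and 0.16, although its ratio over all CMs was 0.45.

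Nqo1 encodes a quinone reductase and is a classic target of NRF2 (GRCm38 chr8:107388225-107403206, minus strand). It was a low gene, highest in CMs at 43.9 and 31.3 CPM, where it was the only member with a negative ratio, -0.48 (-0.96 to -0.03) from 106 and 63 UMIs. ECs held 16.8 and 22.1 CPM, a log2 ratio of 0.39 (-0.16 to 0.96). In MPs it had 1 UMI per library, and in T cells 0. Hmox1 encodes haem oxygenase-1, which degrades haem (GRCm38 chr8:75093621-75100589, plus strand). MPs held the most, 48.3 and 63.9 CPM from 64 UMIs in each library, with a log2 ratio of 0.40 (-0.12 to 0.92). In the PD-1 inhibitor library this overlapped with T cells, at 26.1 CPM from 5 UMIs.

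Nfe2l2 encodes NRF2, which is controlled largely at the protein level by KEAP1 (GRCm38 chr2:75675513-75704641, minus strand). Mesothelial cells held the most, 514 and 535 CPM. In ECs it stood at 182 and 203 CPM, from 542 and 588 UMIs. The log2 ratio was 0.16 (-0.01 to 0.33), below those of Mgst1 and Ephx2. In fibroblasts it was at 190 and 163 CPM, a log2 ratio of -0.22 (-0.41 to -0.03). MPs were the only one of the 4 largest types in which a member was lower past 1.5-fold, with Nfe2l2 at 237 CPM (212 to 265) and 158 CPM (134 to 184), and its log2 ratio was -0.59 (-0.87 to -0.31). This lay just past the threshold. Under the processing alternatives the ratio ranged from -0.62 to -0.43, in part short of 1.5-fold. In the large MP cluster alone it was -0.60 (-0.90 to -0.30). With Gstm1 and Cat higher, MPs had 2 members higher and 1 lower of 9, beside 7.09% and 6.83% of all genes. In fibroblasts 2 of 9, Mgst1 and Cat, were higher and 0 lower, beside 5.6% and 3.95% of all genes, and in mesothelial cells only Cat of 7 was, beside 5.75% of all genes higher and 6.25% lower.

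By the point values, for 8 of the 10 genes the same cell type of 8 was highest in both libraries, mesothelial cells for Mgst1, Gstm1, Gpx3 and Nfe2l2, CMs for Cat, Sod2 and Nqo1, and MPs for Hmox1. Ephx1 and Ephx2 were the exceptions, with ECs on top in the PD-1 inhibitor library and mesothelial cells and CMs, respectively, in the Control library. In the Control library the top type overlapped with the next within counting error for Ephx1 and Cat, and in the PD-1 inhibitor library for Gstm1, Ephx1, Ephx2, Nqo1 and Hmox1. Mural cells had no member past 1.5-fold of 5 compared, beside 8.43% of all genes higher and 8.94% lower. The genes whose levels most resembled those of a member were sought over 16 points, 8 cell types in 2 libraries, by the correlation of log2(CPM + 1). They included Atp5c1 (r = 0.989) and Mdh1 (r = 0.985), a subunit of ATP synthase and a malate dehydrogenase, for Sod2. For Mgst1 they were Ces2g (r = 0.957) and Csf1 (r = 0.933), for Ephx2 Cd59a (r = 0.949) and Ankrd33b (r = 0.910), and for Gpx3 Hspa5 (r = 0.951) and C3 (r = 0.937). The closest were Angptl7 (r = 0.934) for Gstm1, Tmed10 (r = 0.912) for Ephx1, Kidins220 (r = 0.896) for Cat, Akap1 (r = 0.854) for Nqo1, Gas7 (r = 0.876) for Hmox1 and Plxna4 (r = 0.944) for Nfe2l2. The points of a library share its depth and its free RNA.

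Beyond the 10 genes, 105 further genes of redox defence and detoxification were listed in 9 groups. The list was made with earlier results of these data known. Its shares are therefore a description in every cell type, and nothing is read from them beside those of all genes. In ECs 83 of them were compared, 13 (15.7%) were past 1.5-fold higher and 1 (1.2%) was lower, with a median log2 ratio of 0.20, beside the 6.06% and 4.48% of all genes. Of the glutathione S-transferases 5 of 11 were higher, with Gstm2, a neighbour of Gstm1, at 44.7 and 78.4 CPM, a log2 ratio of 0.81. Adh1, an alcohol dehydrogenase that also oxidises retinol, was at 83.7 and 204 CPM, a log2 ratio of 1.28. Cyp1b1, a cytochrome P450 that acts on oestrogens and foreign compounds, was at 70.3 and 147 CPM, a log2 ratio of 1.06. In endocardial ECs alone Adh1 had 156 and 313 CPM and Cyp1b1 149 and 256 CPM, and in capillary ECs Adh1 had 34.9 and 33.3 CPM. Prdx4, a peroxiredoxin of the endoplasmic reticulum, had a log2 ratio of 0.84 in ECs, and the aldehyde oxidase gene Aox1 had 0.81. Bach2, which encodes a repressor that binds elements like those of NRF2, was the one lower gene, at 108 and 65.7 CPM, a log2 ratio of -0.72. By group, 2 of 14 thioredoxin and peroxiredoxin genes, 5 of 18 other detoxification enzymes and 1 of 6 NADPH suppliers were higher. None was among 8 of glutathione supply and peroxidases, 3 superoxide dismutases, 8 of quinone, haem and iron handling, 9 NRF2 partners and 6 sources of reactive oxygen. Within endocardial ECs 8 of 66 listed genes (12.1%) were higher and 3 (4.55%) lower, beside 7.81% and 5.24% of all genes. Of the glutathione S-transferases there, 2 of 7 were higher and 1 lower. Within capillary ECs 9 of 46 listed genes (19.6%) were higher and 2 (4.35%) lower, beside 9.29% and 7.3% of all genes. The part of the mix of EC subtypes in the counts over all ECs was not tested. In ECs as a whole, Gclc and Gclm had log2 ratios of -0.09 and 0.18, and Txnrd1 had 0.05. The first 2 encode the catalytic and the modifier subunit of glutamate-cysteine ligase and are well-known targets of NRF2. Prdx1 had 0.37 (0.19 to 0.56), Ftl1 0.50 (0.35 to 0.64) and Srxn1 0.04 (-0.77 to 0.85). All of these were picked after their values were seen, so nothing is read from them about NRF2 targets as a group.

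**Figure D5:**
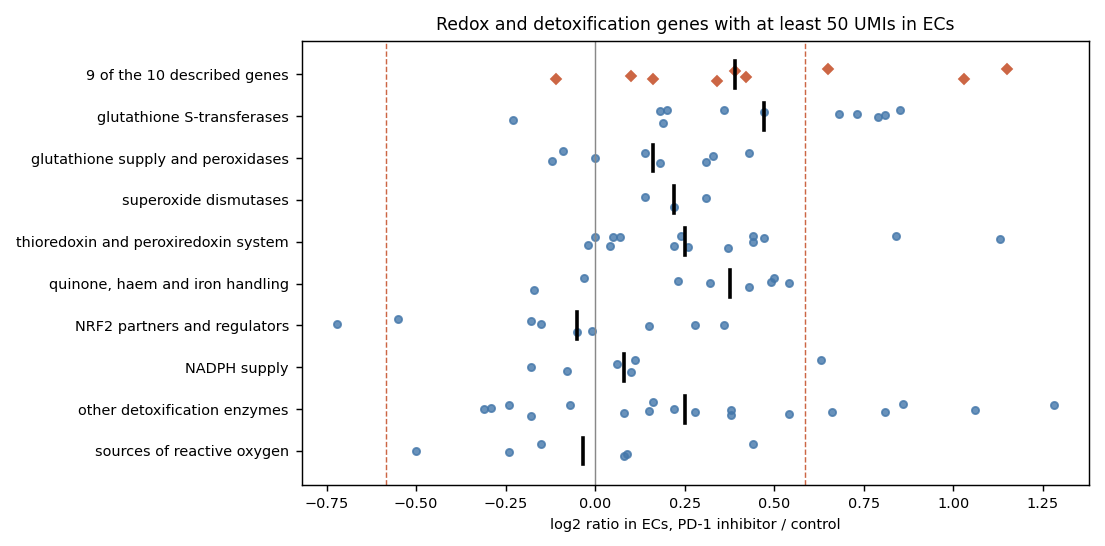
Log2 ratio in ECs, PD-1 inhibitor over Control (horizontal axis), of 9 of the 10 genes (diamonds, top row) and of 83 further redox and detoxification genes by group (circles), each with at least 50 UMIs. Black bars are medians, dashed lines mark 1.5-fold, and points are spread vertically only to be seen. In all, 5 of 11 glutathione S-transferases lie past the right dashed line, and Bach2 at -0.72 is alone past the left one.

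In CMs 18 of 74 listed genes (24.3%) were higher and 5 (6.76%) lower, with a median log2 ratio of 0.33, beside 8.32% and 8.1% of all genes. Prdx1, Prdx5 and Mgst3 had 0.85, 0.71 and 0.73, Gsta4 1.07 and Cyba, a subunit of NADPH oxidase, 0.87. Txnip, which encodes an inhibitor of thioredoxin, had the lowest ratio, -2.07, with 1221 and 242 UMIs. Sesn1 at -0.72 and Bach1 at -0.63 were also lower. With at most 5% mitochondrial UMIs per nucleus, 9 listed genes were higher in CMs. The cluster led by Xirp2, rich in mitochondrial UMIs, made up 38.1% and 46.2% of CMs, and its part in these counts was not tested. In fibroblasts 9 of 85 (10.6%) were higher, beside 5.6% of all genes, among them Gstk1 at 1.04, Srxn1 at 0.77, Nox4, a source of hydrogen peroxide, at 0.76, Gpx7 at 0.74 and Prdx5 at 0.71, and 2 (2.35%) were lower, beside 3.95% of all genes, the metallothionein gene Mt2 at -1.10 and Gsr, glutathione reductase, at -0.61. In MPs 4 of 54 (7.41%) were higher, among them Cyba at 0.69, Ftl1 at 0.64 and Gpx1 at 0.60, and 2 (3.7%) were lower, beside 7.09% and 6.83% of all genes, so the share higher was near that of all genes.

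The log2 ratio moved with the length of a gene in these libraries. In ECs the median over the shortest of 5 bins of all genes was 0.22 and over the longest -0.17. Gstm1 and Gpx3, of 5.72 and 7.92 kb, fell in the shortest bin, Mgst1, of 16.4 kb, in the next with a median of 0.09, and Ephx1 and Ephx2, of 44.7 and 40.1 kb, in the fourth with -0.06. The part of length in the members' ratios was not tested.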

How the data were processed

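The authors deposited raw UMI counts (whole numbers, not normalized) for 1 library per group. The submitters' processing notes name GRCm38 (mm10), and the aligner and the counting software are not given in the sources used here. Nuclei under 200 genes (0 and 0) or over 20% mitochondrial UMIs (83 and 15) were removed, and doublets called by Scrublet (632 and 333) were left out. With scanpy 1.11.5 and leidenalg 0.10.2, counts were scaled to 10000 per nucleus and logged, and 2000 variable genes, 30 principal components and 15 neighbours were clustered at resolution 1. ECs were embedded again alone at resolution 0.5, a choice made after the clusters were seen. A marker was detected with a UMI in at least 5% of nuclei and over 2 times the CPM of the other nuclei, and a name needed 3 markers. One cycling cluster of 32 and 13 nuclei stayed unnamed.

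UMIs were summed per cell type and library and divided by the total, per 1000000 UMIs, and log2 ratios have 0.5 UMI added to each count. Intervals are exact Poisson (levels), Clopper-Pearson (shares) or conditional binomial (ratios), and for UMI counts of 0 the limit is 3 counts. With 1 library per group there is no test. Steps were tested on simulated data. Named are all 10 members and, of the listed genes, up to 5 per direction and cell type with at least 100 UMIs past 1.5-fold. For resemblance up to 2 of the most correlated genes with at least 200 UMIs were taken, in types with 50 nuclei per library. Gclc, Gclm, Txnrd1 and the genes' cluster values were added after their values were seen. So were the EC ratios of Prdx1, Ftl1 and Srxn1 and the counts of listed genes in EC subtypes. The members and lists were chosen with earlier results of these data known. Alternatives were other filters for nuclei, doublets kept, other resolutions, totals, centring, means over nuclei, thinning to 500 UMIs, a minimum of 20 UMIs, a threshold of 2-fold, 1 mix of EC subtypes and, added after seeing the data, clustering without the members. Gene spans are from GENCODE. A leading gene of 1 CM cluster is not reported here.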

Additional observations from a re-analysis of the deposited data

Results flagged for a closer look

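Cat differed in direction between cell types. It was higher in the PD-1 inhibitor library in fibroblasts (log2 ratio 0.81), MPs (0.78) and mesothelial cells (0.73) and lower in adipocytes (-1.01), each with a counting interval on one side of 0. Only 16 adipocyte nuclei were in the PD-1 inhibitor library. Nfe2l2 was higher in valve-like ECs (0.93, from 20 and 39 UMIs) and lower in MPs (-0.59). With 1 library per group, neither difference between cell types was tested.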

How the results depend on the processing

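Of 610 log2 ratios of members under the alternatives, 601 stayed within their counting interval, 9 moved outside it and 0 called ratios changed sign. In ECs the ratio ranged from 0.86 to 1.15 for Mgst1, 0.93 to 1.15 for Ephx2 and 0.60 to 0.74 for Gstm1, with 2 to 4 members higher and 0 lower in every alternative. Scaling moved the median of all genes by at most 0.02.

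Of 252 counts, 43 moved by over 1.5 times. With at least 500 genes per nucleus, listed genes lower in ECs were 3, members in fibroblasts 1 higher and 1 lower, and in MPs 0 members and 1 listed gene were lower. With at most 5% mitochondrial UMIs, 1 member and 9 listed genes were higher in CMs and 0 members lower in MPs. With doublets kept, 1 member was higher in fibroblasts and 0 higher and 0 lower in MPs, and listed genes lower were 2 in ECs, 1 in fibroblasts and 3 in CMs. With the total without mitochondrial and ribosomal protein genes, and with centring on the median, 0 members were lower in MPs. With a mean over nuclei, 2 listed genes were lower in ECs, 1 member was higher in fibroblasts and in MPs, 1 lower in CMs, and 11 listed genes were higher in CMs. Thinned to 500 UMIs, listed genes lower were 0 in ECs, 3 in CMs and 1 in MPs, 5 were higher in CMs, and 0 members were lower in MPs. At a minimum of 20 UMIs, listed genes lower were 4 in ECs, 4 in fibroblasts and 5 in MPs, and 10 were higher in MPs. At 2-fold, listed genes higher were 3 in ECs, 1 in fibroblasts, 4 in CMs and 0 in MPs, those lower 0, 1, 1 and 1, and 0 members were higher in fibroblasts, MPs, endocardial or capillary ECs or lower in MPs. The Nfe2l2 call in MPs and the Mgst1 call in fibroblasts thus lie at the threshold. The cause of the other moves was not tested.

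No paired analysis was possible because each group has 1 library. Hmox1 and Nqo1 had under 50 UMIs in most cell types, such as Hmox1 in ECs and CMs and Nqo1 in fibroblasts and MPs, and were not compared there. How far hearts of a group differ is unknown.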
